A study of Mus musculus with 15 samples.

Results

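B2m encodes beta-2-microglobulin, the small invariant light chain of MHC class I. The arrays carry 1 probe for it, CUST_13_PI419532418, named in the files by the RefSeq transcript NM_009735.3 and printed 20 times per array. It was selected by that probe name, as 1 gene of the 48294 features tested, with its levels over the study's groups already known. Every difference of B2m between groups is therefore given as a description with no test. MHC class I molecules sit on the cell surface as a heavy chain bound to beta-2-microglobulin and display short peptides to CD8 T cells. Without the light chain most heavy chains do not reach the surface. In brain the gene is mostly a product of microglia and blood vessel cells, it responds to interferons, and neuronal class I molecules have a part in synapse remodelling. It is also a common reference gene for expression assays. It was 1 of 15 genes printed 20 times per array, which are called reference genes here.

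The samples were brains of C57BL-background mice, wild type (WT) or APP/PS1, a transgenic model of Alzheimer's disease carrying mutant amyloid precursor protein and presenilin 1. APP/PS1 mice were 1, 3, 6 or 9 months old. WT samples carry no age label, although the design text describes controls matched for age, so age and genotype cannot be told apart in any comparison with WT. The labels describe 1 male and 2 females in each group, whereas the design text describes males only. The promoters that drive the transgenes are not given in the sources used here. One-colour Agilent arrays were used, 2 for WT and 3 for each APP/PS1 age, 14 in all; the third WT sample was not analysed here.

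Before the results, 3 pairs of arrays need mention. Replicates 2 and 3 at 1, 3 and 6 months, the 2 females of each group, were nearly the same measurement. Over printed copies of negative probes, the correlation of their residuals lay between 0.800 and 0.825. In the other 88 pairs of arrays it did not exceed 0.240. Each such pair was averaged and counted as 1 sample, which left 11 samples: 2 in WT, 2 each at 1, 3 and 6 months, and 3 at 9 months. Outside 9 months each group is thus 1 male and 1 female. For the unflagged B2m copies the correlation was 0.881 in the 1-month pair and 0.974 in the 6-month pair, and from -0.603 to 0.768 in the other 88 pairs. At 3 months one copy, at row 149 and column 137, was dim on both female arrays, with intensities of 6817 and 7969, while the same position read 34365 on the male array of that age. The scanner software flagged this copy as an outlier on both arrays, and also the copy at row 301 and column 22. With flagged copies left out, the correlation of the 3-month pair was -0.040 over 18 copies, against 0.994 with all 20. The unflagged B2m copies thus did not set this pair apart as the negative probes did, while the dim copy was shared by both its arrays. The arrays of each pair also lay at the same slide position, as did some arrays of different ages. By the scanner voltage in the file headers, the 9-month arrays were read at 354 V, the third replicates of the younger APP/PS1 groups at 355 V, and the other 8 arrays at 356 V.

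Arrays differed in brightness, with 75th percentiles between 384 and 566 intensity units, and 68.1% to 82.4% of their spots were well above background. Levels below are log2 of the processed intensity minus the array's 75th percentile, averaged over the copies not flagged as outliers. All 280 B2m spots were well above background, none was saturated, and 21 were flagged as outliers. The copies used had a standard deviation of 0.029 to 0.081 log2 units on an array. The number of arrays limits the precision between groups.

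The region upstream of B2m is shown because it holds letters through which class I genes are known to be induced: an interferon-stimulated response element, a kappaB site, and the cores of the X2 and Y boxes. The arrays measured RNA only, and nothing in them reads this region. The 250 bases before the start site are on the plus strand at chr2:122147437-122147686 in GRCm38.p6, from RefSeq. Capitals mark 5 motifs, each searched on both strands.

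B2m upstream region: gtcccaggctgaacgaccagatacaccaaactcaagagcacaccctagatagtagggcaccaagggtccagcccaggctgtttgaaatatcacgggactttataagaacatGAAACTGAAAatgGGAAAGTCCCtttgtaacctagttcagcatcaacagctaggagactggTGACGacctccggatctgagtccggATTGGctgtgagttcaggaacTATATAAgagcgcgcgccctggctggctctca

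The interferon element, searched as GAAA, any 2 bases and GAAA, matched once, from 139 to 130 bases before the start, and 2.98% of 32851 promoter windows of the same length hold it. The kappaB site, searched as GGG, any 2 bases and TTTCC, matched once on the minus strand at 126 to 117 bases, with a share of 1.41%. TGACG, the core of the X2 box, lay at 78 to 74 bases (17.8% of windows), and ATTGG, the inverted CCAAT core of the Y box, at 53 to 49 bases (33.8%). TATATAA lay at 32 to 26 bases (3.04%). The motifs do not overlap each other. A match is a run of letters and not a measured binding site.

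B2m was high in WT and lower in the youngest transgenic mice. The median intensity of its 20 copies was 34943 on the male and 35389 on the female WT array. At 1 month it was 25922 on the male array and 26214 and 25944 on the female arrays. All 3 arrays at 1 month lay below both WT arrays. On the scaled log2 level WT read 6.45 in the male and 6.44 in the female, a mean of 6.44 ± 0.0055 (SD, n = 2). At 1 month the male read 5.78 and the female 5.73, a mean of 5.76 ± 0.029 (SD, n = 2). The log2 difference was -0.69 (SE 0.045, from the spread pooled over the 5 groups), or 0.621 times the WT level. It was -0.67 in males and -0.70 in females, so both sexes gave nearly the same value. Without scaling the arrays the difference was -0.44, and the 75th percentiles were 473 to 492 at 1 month against 404 and 407 in WT.

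At 3 months the level was that of WT. Median intensities were 33925 on the male array and 34870 and 34571 on the female arrays. The log2 level was 6.46 in the male and 6.42 in the female, a mean of 6.44 ± 0.028 (SD, n = 2). These 2 values lie on either side of the WT values. The log2 difference from WT was 0.00022 (SE 0.045). The dim copy moved this value: with all 20 copies averaged it was -0.066. Relative to the 1-month mice, whose arrays were read at the same voltages, 3-month B2m was higher by 0.69 (SE 0.045), or 1.61-fold.

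At 6 months B2m was low again. Median intensities were 24792 on the male array and 29475 and 29225 on the female arrays, all below both WT arrays. The log2 level was 5.81 in the male and 5.67 in the female, a mean of 5.74 ± 0.093 (SD, n = 2), the widest spread of the 5 groups. The difference from WT was -0.70 (SE 0.045), or 0.615 times the WT level, with -0.64 in males and -0.76 in females. It was -0.40 without scaling. The female arrays had the highest 75th percentiles of the study, 562 and 566, against 446 in the male, and on raw intensity the female lay above the male. Against 3 months the difference was -0.70, of the same size as against WT.

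The highest levels of the study were at 9 months. Median intensities were 62634 in the male and 67280 and 65216 in the females, above every array of every other group. The log2 levels were 7.01, 6.99 and 6.95, a mean of 6.98 ± 0.029 (SD, n = 3). The difference from WT was 0.54 (SE 0.041), or 1.46-fold, with 0.56 in males and 0.53 in females. It was 0.88 without scaling. Against 6 months the difference was 1.24 (SE 0.041), or 2.37-fold. All 9-month arrays, and no others, were read at 354 V, so scanner voltage and age cannot be told apart for these 3 samples. They lay at slide positions also held by arrays at 3 and 6 months. A separate slide or run for the 9-month arrays thus cannot be told apart from age either. In these brain samples, a change in the number of cells that express B2m and a change in the RNA per cell cannot be told apart.

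**Figure D1:**
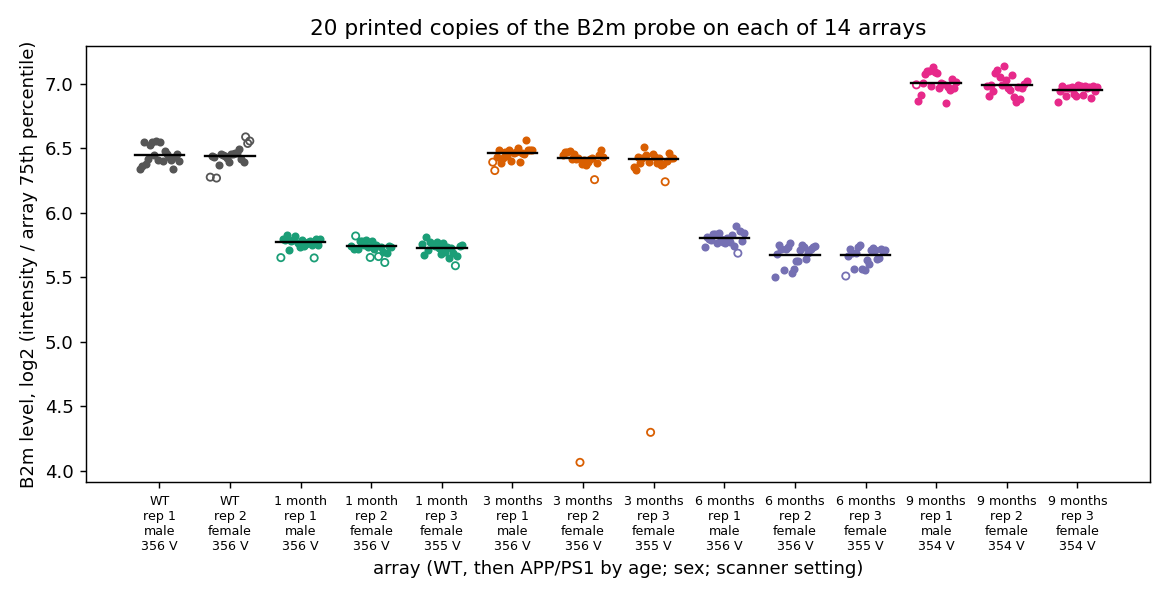
Level of each of the 20 B2m copies on the 14 arrays, as log2 of intensity over the array's 75th percentile, with WT first and APP/PS1 by age; open points are copies flagged as outliers and bars are means of the other copies. The 1- and 6-month arrays lie below WT and 3 months, the 9-month arrays above all, and the dim copy at 3 months appears on both female arrays.

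In order of mean level the groups ran 6 months, 1 month, WT, 3 months and 9 months. The 6- and 1-month values overlap, at a log2 difference of -0.016, and so do those of WT and 3 months. These neighbours do not differ beyond their spread. The step from 1 month to WT left a gap of 0.66 between the nearest samples, and the step from 3 to 9 months a gap of 0.49. The standard deviation of samples within a group, pooled over the groups, was 0.045 with 6 degrees of freedom. With age the APP/PS1 level therefore went up from 1 to 3 months, down to 6 months and up to 9 months, and not steadily in one direction.

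The single copies gave the same picture. The unflagged copies ran from 6.34 to 6.55 in WT, from 5.65 to 5.83 at 1 month, from 6.33 to 6.57 at 3 months, from 5.50 to 5.90 at 6 months and from 6.86 to 7.14 at 9 months. No copy at 1 or 6 months reached the lowest copy of WT or 3 months, and no copy of any younger group or WT reached the lowest at 9 months. Position by position, all 20 copies were lower than in WT at 1 month and at 6 months, and all 20 were higher at 9 months. At 3 months 15 were lower and 5 higher. Copies on one array share a hybridisation, so they show the precision of the reading and not of the mice.

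The differences were next set beside the other 14 reference genes, printed 20 times each and read on the same arrays. The set was defined by that print number, and whether each gene is a usual reference gene was not checked. Over the 5 groups B2m had the widest range of group means of the 15, 1.24 log2 units. It was followed by Gusb, a lysosomal enzyme, with 0.77, Nono, a paraspeckle protein gene, with 0.60, and Actb, cytoskeletal actin, with 0.59. G6pd2, Tuba1b, Hprt, Tfrc, Hsp90ab1, Gapdh, Gk, Ldhal6b and Tbp lay between 0.24 and 0.43. The narrowest were Ppia, cyclophilin A, with 0.20, and Rpl13a, a ribosomal protein gene, with 0.15. B2m was chosen with its values known, so its place in this order is a description.

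At 1 month 1 of the 14 was lower than WT by limma (adjusted p under 0.05 over all features) and 0 were higher. Over all features 4.14% were called lower, 4.41% higher and 8.55% in either direction. At unadjusted p under 0.05, 4 were lower and 0 higher. Shares of all features were counted at adjusted p only, so unadjusted counts, here and below, have no share to be read against. The one called was Hprt, a purine salvage enzyme, whose samples read 7.04 and 7.05 in WT against 6.69 and 6.65 at 1 month. It fell by 0.37 (SE 0.081, limma adjusted p = 0.032). The size depended on the scaling: the Hprt difference was -0.23 with normexp, -0.21 with quantile normalization, -0.21 with scaling to the other reference genes and -0.12 without scaling. The median difference of the 14 was -0.16, against 0.015 for all features, and all 14 lay above B2m. Over all features, 13.5% differed from WT by more than B2m did, in either direction.

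At 3 months 2 of the 14 were lower and 0 higher (3 and 0 at unadjusted p under 0.05). At adjusted p, 3.72% of all features were called lower, 6.44% higher and 10.2% in either direction. Nono fell by 0.44 (SE 0.11, limma adjusted p = 0.042) and Gk, glycerol kinase, fell by 0.30 (SE 0.073, limma adjusted p = 0.043), or by 0.19 with scaling to the other reference genes. The median of the 14 was -0.049 and that of all features 0.024. B2m lay among them, with 9 below it and 5 above.

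At 6 months 3 of the 14 were lower and 0 higher (3 and 0 at unadjusted p under 0.05). At adjusted p, 8.44% of all features were called lower, 12.5% higher and 21% in either direction. Actb fell by 0.59 (SE 0.11, limma adjusted p = 0.0080), from 6.72 and 6.65 in WT to 6.24 and 5.95. Nono fell by 0.56 and Tfrc, the transferrin receptor gene, fell by 0.37 (limma adjusted p = 0.0090 and 0.029). Without scaling the 6-month differences were -0.28 for Actb, -0.26 for Nono and -0.058 for Tfrc. That of Tfrc was also -0.21 with normexp and -0.22 with scaling to the other reference genes. The median of the 14 was -0.064 against 0.074 for all features. B2m lay below all 14, and Actb was the nearest to it.

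At 9 months 3 of the 14 were lower and 0 higher (6 and 1 at unadjusted p under 0.05). At adjusted p, 13.5% of all features were called lower, 17.4% higher and 30.9% in either direction. Nono fell by 0.60, Hsp90ab1, a cytosolic chaperone gene, fell by 0.33 and Actb fell by 0.32 (limma adjusted p = 0.0032, 0.018 and 0.043). Without scaling, Actb and Hsp90ab1 were at 0.020 and 0.015 and Nono at -0.26, so the direction of Actb and Hsp90ab1 holds only for scaled values. With normexp they were at -0.15 and -0.20, and with scaling to the other reference genes both were at -0.19. Gusb did not pass (0.44, SE 0.15, limma adjusted p = 0.060), and its 9-month samples read 2.53, 2.48 and 2.03. The median of the 14 was -0.11 against 0.046 for all features. B2m lay above all 14, with Gusb the nearest. Over all features, 28.2% differed from WT by more than B2m did, in either direction. The calls at 1 and 3 months did not hold when any 1 sample of the 2 groups was left out. Such a fit keeps 1 sample in a group, and fewer of all features were called too. At 9 months fewer calls were left without either WT sample, again with fewer over all features. Without 9-month replicate 2, 1 call was left, where 23.9% of all features were called. Several of these genes have many near-identical copies in the genome, such as Gapdh, Ppia, Actb and Rpl13a, and their probes may read more than one.

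**Figure D2:**
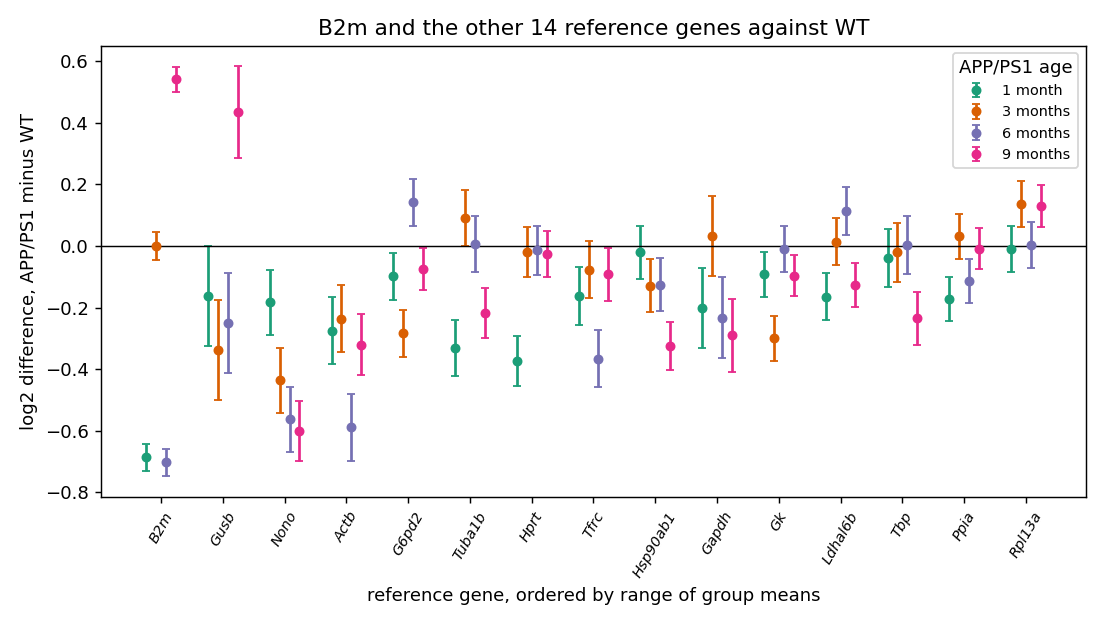
Log2 difference from WT of B2m and the other 14 reference genes at each APP/PS1 age, ordered by the range of group means; bars are 1 SE, from the pooled spread of B2m for B2m and from limma for the others. B2m lies at -0.69 and -0.70 at 1 and 6 months, below the other 14 genes shown, and at 0.54 at 9 months, above them.

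A ratio of B2m to another gene on the same array does not depend on array scaling. Such ratios to each of the 14 genes were lower than in WT for all 14 partners at 1 month, from -0.68 with Rpl13a to -0.31 with Hprt on the log2 scale. At 6 months they were lower for all 14 again, from -0.85 with G6pd2 to -0.11 with Actb. At 9 months they were higher for all 14, from 0.11 with Gusb to 1.14 with Nono. At 3 months 5 were lower and 9 higher, from -0.14 with Rpl13a to 0.44 with Nono. A ratio shows unequal change of both genes and not which of them changed. The choice of partner thus moved the size of the B2m difference severalfold at 6 and 9 months, while its sign was the same for every partner at 1, 6 and 9 months.

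The choice of processing acted in the same way. Over the 12 other settings plotted, the 1-month difference ran from -0.76 to -0.44, that at 6 months from -0.82 to -0.40 and that at 9 months from 0.42 to 0.88, each with one sign throughout. The 3-month difference ran from -0.074 to 0.13 and took both signs. With the first array of each near-identical pair alone, which keeps WT, 1, 3 and 6 months within the arrays read at 356 V, the differences were -0.68, 0.0037 and -0.70 at 1, 3 and 6 months. Each of these groups lay at its own slide positions, so position and group cannot be told apart.

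**Figure D3:**
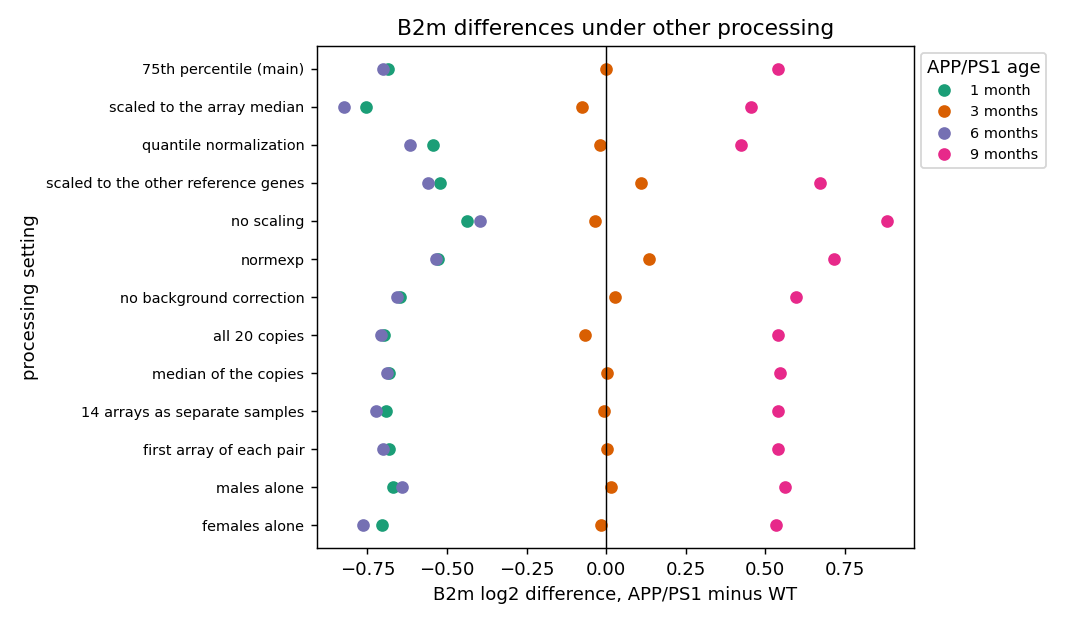
Log2 difference of B2m from WT at each APP/PS1 age (colours) under the setting used in the text and 12 others, 1 per line. The 1- and 6-month points stay between -0.82 and -0.40, the 9-month points between 0.42 and 0.88, and the 3-month points lie around 0.

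Within each of the 5 groups the female level was below the male, by 0.0077 to 0.13 log2 units and by 0.051 on average. This comparison was added after the levels were seen. It is given with no test. The mean was -0.11 with scaling to the array median (females lower in 4 of 5 groups), -0.090 with normexp background correction (5 of 5) and -0.0016 with quantile normalization (2 of 5). It turned to 0.0072 with scaling to the other reference genes (2 of 5) and to 0.066 without scaling (0 of 5). Of the other 14 reference genes 12 had a lower mean in females, and 9 of them lay further down than B2m.

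Genes with a level pattern like that of B2m were sought by Pearson correlation of log2 levels over the 11 samples, as a description, since all points share the arrays and their scaling. Among 84 other gene symbols, Fam177a2 was the closest, with r = 0.956. It read 1.80 and 1.78 in WT, 1.21 and 1.097 at 1 month, 1.56 and 1.44 at 3 months, 1.34 and 1.23 at 6 months, and 2.20, 2.22 and 2.22 at 9 months. Its 3-month level lay below WT, where that of B2m did not. Zfp131, a zinc finger protein gene, followed with r = 0.928, with group means of 4.42 in WT, 4.13, 4.30 and 4.11 at 1, 3 and 6 months, and 4.65 at 9 months. Its range was 0.54, against 1.24 for B2m. Next came Ccl28 (r = 0.868), Ccl21b (0.806) and Gm13304 (0.804). Ccl28 and Ccl21b encode chemokines. Without the 9-month samples Ccl21b and Gm13304 correlated at 0.173 and 0.158 with B2m, so their likeness rested on the 9-month level. That of Ccl28 dropped to 0.584, and its group mean was -4.14 at 3 months against -2.57 in WT, where the means of B2m were alike. Ccl21b had a group mean of 4.22 at 9 months and of -0.85 to -0.13 in the other groups. Ccl21b belongs to a family of closely matching gene copies, and the probe may read several of them.

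Over the 8 samples without 9 months the closest symbols were Ppia (r = 0.926), Fam177a2 (0.877), Zfp131 (0.874), Tfrc (0.823) and Gapdh, a glycolytic enzyme (0.795). Ppia read 8.43 in WT, 8.26 at 1 month, 8.46 at 3 months and 8.32 at 6 months as group means. Like B2m it was lower at 1 and 6 months than in WT and at 3 months, over a much smaller range. At 9 months Ppia read 8.42, near WT, where B2m was at its highest. Fam177a2 and Zfp131 were thus among the 5 closest symbols with and without 9 months. Over all 11 samples Ppia had r = 0.766 and Gapdh -0.010.

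Some probes without a gene symbol followed B2m more closely, out of a far larger pool. Of the 48293 features compared 84 had a symbol, and 2 of these symbols had r above 0.9 over 11 samples and 1 over 8. ASMM9PARTA008936 had r = 0.993 over 11 samples and 0.981 over 8, with group means of -3.49 in WT, -4.68, -3.33 and -4.81 at 1, 3 and 6 months, and -2.24 at 9 months. Its group means spanned 2.57 log2 units. ASMM9PARTA027154 and ASMM9PARTA049128 followed with 0.990 and 0.988. Over 8 samples the highest were ASMM9PARTA042328 (0.992), ASMM9PARTA029194 (0.990) and MM9LINCRNAEXON11012+_P1 (0.988), and over 11 samples their r was 0.127, 0.380 and 0.490. In all 231 features (0.478%) had r above 0.9 over 11 samples, 290 (0.601%) over 8, and 61 in both. The most opposite symbols over 11 samples were Hsp90ab1 (-0.639), Tbp, the TATA-binding protein gene (-0.634), and H2al2b, a histone H2A gene (-0.592). Over 8 samples these were 0.130, 0.142 and -0.175, so their opposite pattern rested on the 9-month samples. Over 8 samples they were Mia3, which acts in collagen export (-0.800), Vmn1r243, a pheromone receptor gene well above background on 3 of 14 arrays (-0.778), and Gm20854 (-0.768).

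**Figure D4:**
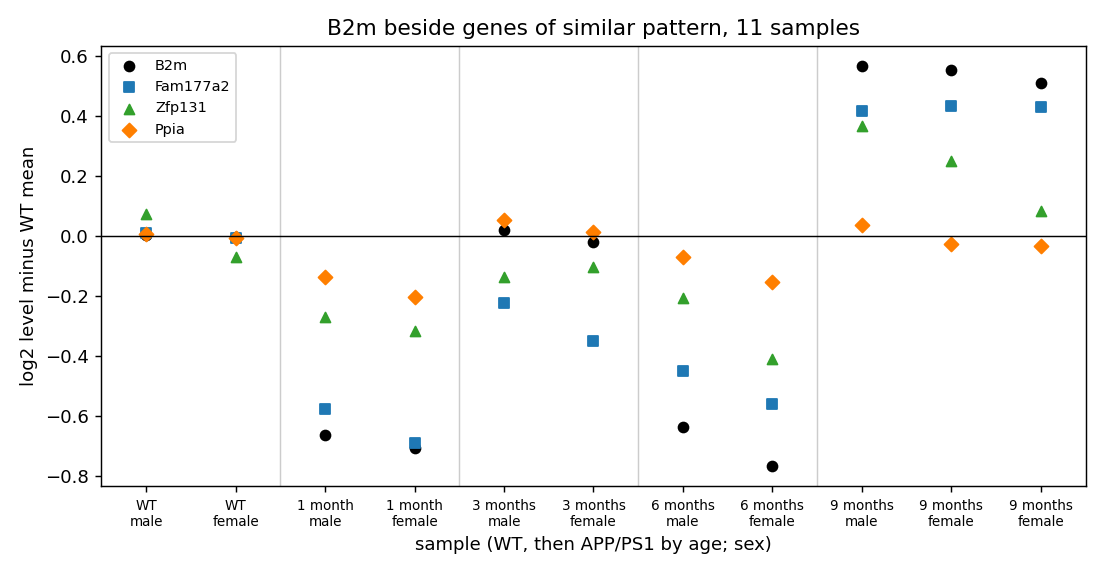
Log2 level minus the WT mean of B2m, Fam177a2, Zfp131 and Ppia in the 11 samples, 1 point per gene and sample. Fam177a2 and Zfp131 lie below WT at 1 and 6 months and above it at 9 months, as B2m does, while Ppia lies near WT at 9 months.

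The partners of B2m could not be followed by name. Of 56 genes of antigen presentation and its control, including class I heavy chains, peptide transporters, immunoproteasome subunits and interferon signalling genes, 0 had a probe paired with a symbol. The same held for 53 markers of microglia, endothelium, astrocytes, neurons, oligodendrocytes, choroid plexus, blood and meninges, so the labelled tissue was not checked against markers and the share of any cell type was not tested.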

How the data were processed

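Cy3-labelled cRNA of brain RNA was hybridised to one-colour arrays, per the labels. The submitters' processing notes name Agilent Feature Extraction, version 10.7.1.1. The processed intensity used here was deposited background-subtracted and detrended within an array; flags of 0 or 1 per spot and a probe class, other deposited values, come from the same files. The series' value table equalled the mean local background in all 62513 rows of the 14 columns checked (tolerance 0.001; column medians 27.9 to 36.8). It is linear background intensity without expression direction, and was not used further.

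Control and negative spots were left out, log2 taken and the array's 75th percentile subtracted. Spots were averaged without outlier flags, 134 probes with non-uniform spots dropped, and a probe was kept if at least 3 arrays read it well above background (48294 features after the brightest probe per symbol). That filter cannot keep a probe seen in WT alone. Arrays of a group whose negative-probe residuals correlated above 0.5 were averaged. Of 59709 probes 116 matched a symbol through RefSeq (GRCm38.p6 table, names only). limma 3.58.1 in R 4.3.3 was fitted to all groups, with Benjamini-Hochberg adjustment, and tested on simulated data. The normexp setting (offset 50) used the median spot signal, as the files used hold no mean signal.

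B2m, the gene lists and the tests were chosen with earlier results of these data known. Genes named are B2m, the other 14 reference genes, and by correlation with B2m the 5 highest and 3 lowest symbols and 3 highest other probes, over 11 and over 8 samples. Replicate numbers follow accession order and pair no samples.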

Additional observations from a re-analysis of the deposited data

Results flagged for a closer look

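The 3-month difference of B2m from WT had opposite signs in the sexes, 0.016 in the male and -0.016 in the female, so that the female difference minus the male difference was -0.032 on the log2 scale. Each sex has 1 sample per group there, the value is smaller than the pooled standard deviation between samples, and the difference between the sexes was not tested.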

How the results depend on the processing

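B2m kept its sign against WT at 1, 6 and 9 months under all 16, 16 and 17 alternatives. Over the 4 comparisons, 40 alternatives lay within the pooled standard deviation of the value in the text and 25 moved further. In the order 1, 3, 6 and 9 months, the log2 differences were -0.76, -0.074, -0.82 and 0.45 with scaling to the array median, and -0.52, 0.11, -0.56 and 0.67 with scaling to the other reference genes. With normexp they were -0.53, 0.13, -0.54 and 0.72. Quantile normalization gave -0.54, -0.62 and 0.42 and no scaling gave -0.44, -0.40 and 0.88 at 1, 6 and 9 months. Without background correction 6 and 9 months were -0.66 and 0.60. With all 20 copies 3 months was -0.066. In males alone 6 months was -0.64 and in females alone -0.76. Leaving out each sample in turn gave -0.71 to -0.67, -0.019 to 0.020, -0.77 to -0.64 and 0.53 to 0.56. Normexp moved the median of all features to -0.24, -0.16, -0.25 and -0.25. The mean female minus male difference turned from -0.051 to 0.0072 with the other reference genes as scale and to 0.066 with none, a comparison and settings added after the data were seen. The cause was not tested.

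Of the other 14 reference genes, 1 was called at 1 month by limma, where 8.55% of all features were called. The count became 0 with the array median, quantile normalization, normexp, no filter on dim probes, the 2 groups alone and without the 9-month arrays. In that order, 4.21%, 7.59%, 8.1%, 4.8%, 0.236% and 3.91% of all features were called. It became 4 with 14 separate arrays, where 22% of all features were called. The 2 at 3 months (10.2% of all features) became 0 with the array median, normexp, no filter, the 2 groups alone and without the 9-month arrays. In that order, 5.8%, 4.64%, 6.07%, 0.344% and 5.3% of all features were called. They became 1 with sex as a block, where 9.59% of all features were called. At unadjusted p under 0.05 the settings that left 0 calls gave 1 to 3 at 1 month and 3 to 4 at 3 months. The 3 at 6 months (21% of all features) became 0 with the 2 groups alone (3 unadjusted), where 3.12% of all features were called. The 3 at 9 months (30.9% of all features) became 7 with quantile normalization and 6 with 14 separate arrays. In these settings 31.1% and 38.8% of all features were called. Leaving out a sample of WT, 1, 3 or 6 months keeps 1 sample in a group, and fewer of all features were called then. The calls at 1 and 3 months did not hold in such fits, while calls remained at 6 and 9 months. Leaving out each 9-month sample in turn gave 1 to 3 at 9 months, where 23.8% to 24.7% of all features were called. Replicate numbers in the titles are all alike and pair no samples, so no fit had a replicate block. With sex as a block the counts at 1, 6 and 9 months were 1, 3 and 3, where 8%, 20.7% and 30.6% of all features were called.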
